A study of Mus musculus with 9 samples.

Results

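Mgat3, Mgat5, B4galnt1 and Gbe1 encode enzymes that add branches or sugars to glycans and glycogen. They were taken by gene name from the expression tables deposited for the mouse kidney, and all 4 were found among 489 distinct genes. The kidneys came from 3 young mice aged 2 months, 3 old mice aged 20 months and 3 further mice of 20 months that had received 3HB. All were males of the outbred ICR strain, and 3-hydroxybutyrate (3HB), a ketone body, was supplied as its sodium salt at 1 g/L in the drinking water from 11 months of age, while young and old mice received no treatment. The sources do not say which of the 9 sequenced mice shared a cage or litter, and the spread between 3 mice is the only error available.

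Each of the 2 tables is limited to genes called by the authors in that comparison, with a normalized expression value per mouse. Mgat3, Mgat5 and Gbe1 were among the 113 genes listed for 3HB against old, and B4galnt1 was among the 389 genes listed for young against old. None of them was among the 13 genes in both tables. A gene that is listed for a comparison was picked for its difference there, so that difference is given as a description without a test. The comparisons that a table did not use were tested with a two-sided exact permutation test, which cannot go below p = 0.1 with 3 mice against 3. No difference could therefore pass a threshold of 0.05 here. Each tested comparison also shares a group with the comparison that listed the gene, so its p-value is not independent of the listing. Differences are given as the mean of log2(value + 1) in the first group minus that in the second, with the standard error (SE), and this scale understates changes of low values. Depth is unknown, because the tables hold no read totals.

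In the Golgi apparatus, N-glycans on proteins are trimmed and then given antennae by a family of N-acetylglucosaminyltransferases. MGAT5 starts one of the outer antennae, which can carry long chains that galectins bind. MGAT3 adds a bisecting N-acetylglucosamine to the core, and bisected glycans are poor substrates for the other branching enzymes. B4GALNT1 works on lipids in the same organelle, adding N-acetylgalactosamine on the route to complex gangliosides. GBE1 is a cytosolic enzyme that branches the glucose chains of glycogen, which makes the polymer soluble. The kidney keeps little glycogen under normal conditions, and the tubule is rich in glycoproteins at its brush border.

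The genes lie on different chromosomes of the mouse genome (GRCm38, GENCODE release M21). Mgat3 (ENSMUSG00000042428) is at chr15:80173721-80215519, Mgat5 (ENSMUSG00000036155) at chr1:127205015-127488336, Gbe1 (ENSMUSG00000022707) at chr16:70313949-70569716 and B4galnt1 (ENSMUSG00000006731) at chr10:127165225-127172330, all on the plus strand. Exons of B4galnt1 share 715 bases with Slc26a10 on the opposite strand, and exons of Mgat5 share 152 bases with Tmem163 on the opposite strand. The use of strand in counting is not given in the sources used here, so reads from these stretches cannot be told apart.

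RefSeq promoter windows (GRCm38.p6), from 250 bases before to 50 bases after the RefSeq start, were given for 2 of the 4 genes, Mgat5 and Gbe1. They are shown because both genes were listed as higher with 3HB. The windows are chr1:127204736-127205035 for Mgat5 and chr16:70313699-70313998 for Gbe1, both on the plus strand, and capitals mark the GC box (GGGCGG), the only motif searched that was found.
Mgat5: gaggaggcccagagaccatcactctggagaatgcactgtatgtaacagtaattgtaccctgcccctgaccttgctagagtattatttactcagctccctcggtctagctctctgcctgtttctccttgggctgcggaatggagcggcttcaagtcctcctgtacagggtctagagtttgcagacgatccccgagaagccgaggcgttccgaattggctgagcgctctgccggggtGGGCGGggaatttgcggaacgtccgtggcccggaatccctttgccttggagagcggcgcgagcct
Gbe1: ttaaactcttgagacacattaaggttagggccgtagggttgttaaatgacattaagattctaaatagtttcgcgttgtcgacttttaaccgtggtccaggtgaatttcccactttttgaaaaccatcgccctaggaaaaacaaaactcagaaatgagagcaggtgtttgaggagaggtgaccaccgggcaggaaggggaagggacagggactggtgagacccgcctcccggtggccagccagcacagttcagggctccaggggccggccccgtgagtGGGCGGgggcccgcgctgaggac
Each window held 1 GC box on the strand of the gene. It began 15 bases before the RefSeq start in Mgat5 and at base 28 of the transcribed part in Gbe1. The RefSeq start of Mgat5 (127204986) lies 29 bases before the GENCODE start given above, so the GC box begins 44 bases before the latter, while both annotations start Gbe1 at the same base. On either strand, a GC box was present in 35.7% of 32851 promoter windows of the same length. The other motifs searched, on both strands, were the heat shock element (GAA, TTC and GAA with 2 free bases between units, in 0.603% of all windows), the ER stress response element (CCAAT and CCACG with 9 free bases between, 0.119%), the cAMP response element (TGAC joined to its reverse complement, 1.79%), the E-box (CACGTG, 7.15%), the hypoxia element core (ACGTG, 19.6%, which the E-box contains) and the TATA box (TATAAA, 13.6%). No match to any of them was found in either window. The share of G and C was 58% in the Mgat5 window and 54.3% in the Gbe1 window, against a median of 52.7% over all windows.

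The tissue and the libraries were checked before the comparisons. The labels name kidney as the tissue, as do the results, figure captions and data statement of the paper, while its methods paragraph on sequencing names muscle. Of 12 proximal tubule markers, the tables held Lrp2 and Keg1, with a summed level of 1145 to 1753 in the young mice, 792.2 to 1052 in the old mice and 1001 to 1445 with 3HB. None of 10 skeletal muscle markers, 11 markers of the loop, distal tubule and collecting duct or 9 markers of glomerulus and endothelium was listed, which says nothing of their level in tables of called genes. In addition, young mouse 3 stood apart from the other young mice. Of the 43 genes listed as higher with 3HB, it had the highest young value in 40 and lay above all 3 old mice in 38. Of the 57 genes listed only for 3HB as lower, it had the lowest young value in 39 and lay below all 3 old mice in 50. Of the 376 genes listed only for young against old, it was highest among the young in 144 (38.3%) and lowest in 70 (18.6%). Differences from young mice are therefore also given without young mouse 3, which was singled out after seeing the data. Leaving out each mouse in turn was planned for the 4 enzymes and the ratio of Mgat5 to Mgat3. It was not planned for the ratio of Gbe1 to Pygb or for other genes.

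Mgat3 was higher in the 3HB mice than in both other groups. The young mice were at 11.78, 15.35 and 25.59, the old mice at 20.53, 19.73 and 26.01, and the 3HB mice at 33.97, 35.93 and 37.41. All 3HB mice lay above every other mouse, while the young and old mice overlapped through young mouse 3. The mean ± SD (n = 3 each) was 17.6 ± 7.17 in the young mice, 22.1 ± 3.42 in the old mice and 35.8 ± 1.73 with 3HB. The 3HB mean was 1.62 times the old mean, a log2 difference of 0.68 (SE 0.13). Against young mice the log2 difference with 3HB was 1.05 (SE 0.31; exact permutation test, p = 0.1, the smallest possible), and old mice exceeded young mice by 0.37 (SE 0.33; exact permutation p = 0.3). Without young mouse 3 these differences were 1.35 and 0.67, and all old mice then lay above the other young mice. Leaving out young mouse 1 instead gave 0.82 and 0.14, and leaving out young mouse 2 gave 1.00 and 0.31. In bulk tissue, a change in the number of cells that express a gene and a change in RNA per cell cannot be told apart.

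**Figure D1:**
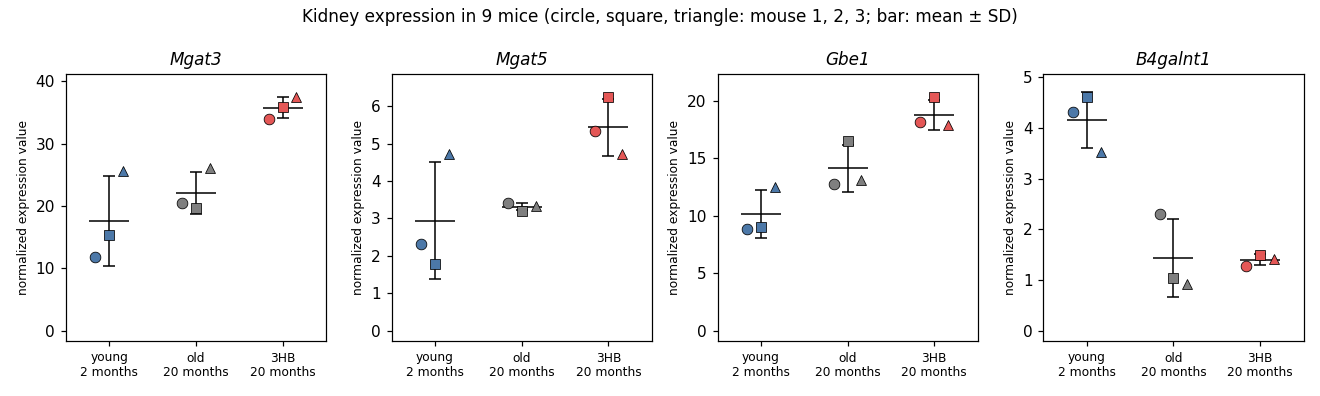
Normalized expression value (linear axis) of Mgat3, Mgat5, Gbe1 and B4galnt1 in each of the 9 kidneys, by group, with circles, squares and triangles for mouse 1, 2 and 3 and bars for the mean ± SD (n = 3). The 3HB mice lie above the old mice in the first 3 panels, and young mouse 3 is the highest young mouse in each of these, while B4galnt1 is higher in the young mice than in all others.

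Mgat5 was also higher in all 3HB mice than in the old mice. The young mice were at 2.32, 1.78 and 4.73, the old mice at 3.41, 3.21 and 3.34, and the 3HB mice at 5.34, 6.24 and 4.73. The old mice lay close together, all 3HB mice lay above them, and young mouse 3 had the same value as 3HB mouse 3. The means were 2.94 ± 1.57 in the young mice, 3.32 ± 0.101 in the old mice and 5.44 ± 0.760 with 3HB. The 3HB mean was 1.64 times the old mean, with a log2 difference of 0.57 (SE 0.10). The 3HB and young mice overlapped, with a log2 difference of 0.77 (SE 0.33; exact permutation p = 0.2), and so did the old and young mice, with a difference of 0.20 (SE 0.31; exact permutation p = 0.6). Without young mouse 3, neither pair overlapped, and the differences were 1.08 and 0.51. Leaving out young mouse 1 gave 0.68 and 0.11, and leaving out young mouse 2 gave 0.55 and -0.014. The difference of old from young mice thus rests on single young mice.

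Both transferases are handed the same N-glycan core, so their balance in each kidney was compared. The log2 ratio of Mgat5 to Mgat3, each with 1 added, was -2.24 ± 0.31 in the young mice, -2.41 ± 0.199 in the old mice and -2.52 ± 0.203 with 3HB (mean ± SD, n = 3 each). All groups overlapped. The ratio differed by -0.11 (SE 0.16) between 3HB and old mice, a comparison that listed both genes and is not tested, and by -0.17 (SE 0.21) between old and young mice (exact permutation p = 0.4). Between 3HB and young mice it differed by -0.28 (SE 0.21; exact permutation p = 0.3). When young mouse 3 was left out, old and 3HB mice differed from young mice by -0.16 (SE 0.33) and -0.27 (SE 0.33), and the groups still overlapped. Young mouse 2, at -2.56, made that overlap, and leaving it out gave -0.33 and -0.44 without overlap, while leaving out young mouse 1 gave -0.023 and -0.13. The value of the ratio also depends on the added 1, because Mgat5 is low. With nothing added, the differences were -0.0026 for 3HB against old, -0.094 for old against young and -0.097 for 3HB against young.

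Gbe1 was the enzyme gene of the 4 with separate ranges in all 3 groups. The young mice were at 8.88, 9.01 and 12.53, the old mice at 12.75, 16.52 and 13.14, and the 3HB mice at 18.19, 20.32 and 17.95. The groups followed each other without overlap, although young mouse 3 came close to old mouse 1. The means were 10.1 ± 2.07 in the young mice, 14.1 ± 2.07 in the old mice and 18.8 ± 1.30 with 3HB. The 3HB mean was 1.33 times the old mean (log2 difference 0.40, SE 0.12). Old mice exceeded young mice by 0.45 (SE 0.18) and 3HB mice exceeded young mice by 0.84 (SE 0.16), each at an exact permutation p of 0.1, the smallest possible. These were 0.60 and 0.99 without young mouse 3.

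B4galnt1 was listed for its difference by age, and its 3HB and old mice overlapped. The young mice were at 4.32, 4.6 and 3.53, the old mice at 2.31, 1.04 and 0.92, and the 3HB mice at 1.28, 1.5 and 1.41. Every young mouse lay above every mouse of 20 months, and old mouse 1 stood above the other old mice and all 3HB mice. The means were 4.15 ± 0.555 in the young mice, 1.42 ± 0.770 in the old mice and 1.40 ± 0.111 with 3HB, so the young mean was 2.92 times the old mean. The log2 difference of old from young mice was -1.13 (SE 0.27) and that of 3HB from young mice was -1.10 (SE 0.10; exact permutation p = 0.1, the smallest possible). Leaving out young mouse 3 gave -1.22 and -1.19. The difference between 3HB and old mice was 0.028 (SE 0.25; exact permutation p = 1), and its sign turned when old mouse 2, old mouse 3 or 3HB mouse 2 was left out. Without old mouse 1 it was 0.28 (SE 0.058), and the other old mice then lay below all 3HB mice, so the value rests on single old mice.

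**Figure D2:**
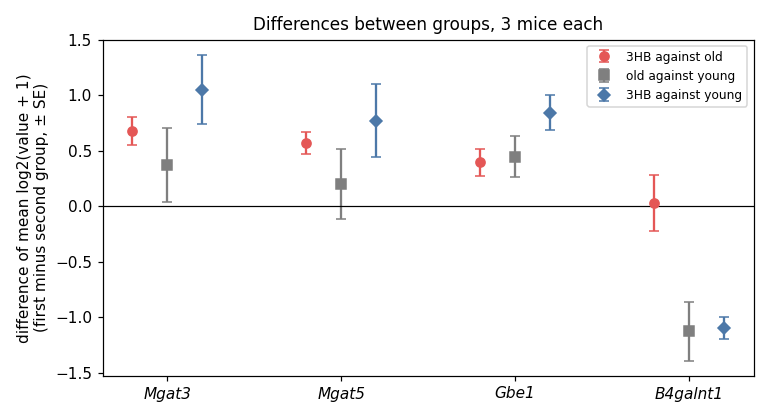
Difference of the group means of log2(value + 1), first minus second group, with the SE as error bar (3 mice per group), for the 4 genes and 3 comparisons. Mgat3, Mgat5 and Gbe1 have positive differences throughout, smallest for Mgat5 between old and young mice (0.20), and B4galnt1 is near -1.1 in both comparisons with young mice.

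The counts of genes without overlap have to be read against all listed genes. For 3HB against old, 3 of the 4 enzymes were higher without overlap, as were 14.5% of the 489 genes, but all 3 had been listed for it. Of the 100 genes listed only for 3HB, 43% were higher and 50% lower with 3HB without overlap. For old against young, 1 of these 3 enzymes (Gbe1) was higher without overlap, against 9% of the 100 genes listed only for 3HB, 64.9% of the 376 genes listed only for young against old and 54% of all 489. Without young mouse 3 it was 3 of 3, against 38% of the 100 genes and 66.8% of the 376. For 3HB against young, Mgat3 and Gbe1 were higher without overlap, against 27% of the 100 genes, 61.7% of the 376 and 54.2% of all 489. Without young mouse 3, all 3 were, against 43% of the 100 genes and 64.1% of the 376, while 30% of the 100 genes were lower. Young mouse 3 made the overlaps of Mgat3 and Mgat5, so leaving it out favours separation, and fewer mice also separate more easily. The counts without it are therefore descriptions, and the share over all 489 genes was not computed for them. B4galnt1 was lower in 3HB than in young mice, as were 21.8% of the 376 genes (22.9% without young mouse 3) and 18.8% of all 489, and lower in old than in young mice, as were 21.9% of the 489 genes. In the comparison of 3HB with old, 7.45% of these 376 genes were higher and 4.26% lower without overlap, and B4galnt1 was neither.

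Among the 43 genes listed as higher with 3HB, the 3 enzymes were near the small end on the scale of log2(value + 1). Mgat3 ranked 31, Mgat5 ranked 40 and Gbe1 ranked 43 by the log2 difference, whose median over the 43 genes was 0.83 and whose range was 0.40 to 2.61. Gbe1 thus marks the smallest difference among the listed rises on this scale. The added 1 lowers the place of Mgat5, whose values are low. With nothing added, the difference was 0.705 for Mgat3 and 0.703 for Mgat5, and the ranks were not computed that way. Young mouse 3 was not above all old mice in only 5 of the 43 genes, and Mgat3 and Gbe1 were among these 5, together with Plau, Tars and Gm47283. B4galnt1 ranked 52 among the 118 genes listed as lower in old mice, whose median difference was 1.06 in size.

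**Figure D3:**
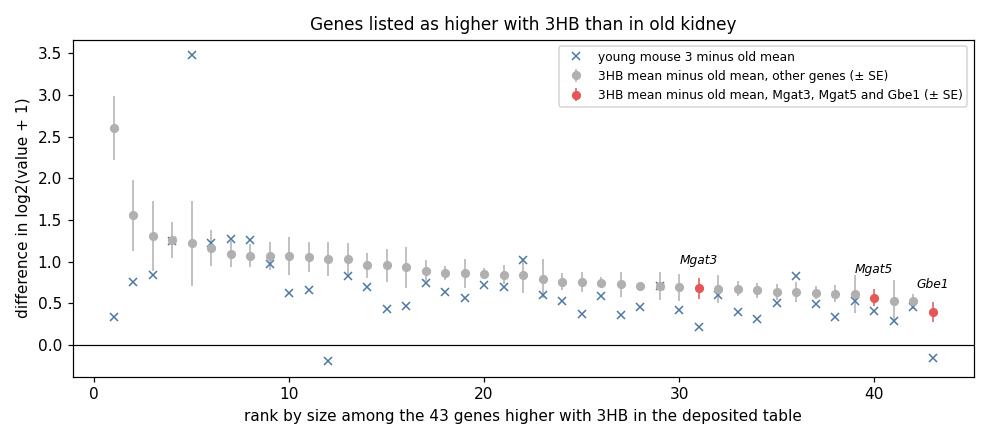
Difference in log2(value + 1) of the 3HB mean from the old mean (circles, with SE, n = 3 each) for the 43 genes listed as higher with 3HB, ordered by size, with Mgat3, Mgat5 and Gbe1 in red, and of young mouse 3 from the old mean (crosses, 1 mouse). The 3 enzymes are at ranks 31, 40 and 43, and most crosses lie above 0, where the cross of Gbe1 (-0.15) does not.

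The longest annotated transcript was 4665 bases for Mgat3, 8436 for Mgat5, 3734 for Gbe1 and 2395 for B4galnt1. The median over the genes listed as higher with 3HB was 4665 bases, and that over the 70 genes listed as lower was 1671.5 bases. Transcript length thus moved with the direction of the 3HB difference, and its part in the result was not tested. Mgat5 and Gbe1 span 283 and 256 kb of the genome, against a median of 31.7 kb over the genes listed as higher with 3HB and 5.26 kb over those lower. Lrp2, the endocytic receptor of the proximal tubule, was at 68.59, 70.38 and 116.6 in the young mice, 89.42, 87.86 and 105.3 in the old mice and 148.08, 154.52 and 143 with 3HB. All 3HB mice lay above all others, as for Mgat3, and both genes were listed as higher with 3HB. Of the 100 genes listed only for 3HB, 43% were higher without overlap than in old mice and 27% than in young mice. Keg1, the other listed marker of the proximal tubule, was at 1076.24, 1290.29 and 1636.64 in the young mice, 962.33, 704.33 and 792.65 in the old mice and 1297.32, 1008.49 and 857.89 with 3HB. It was listed as lower in old than in young mice, the 3HB mice overlapped both groups, and its order was not that of Mgat3, Mgat5 or Gbe1. The part of proximal tubule content in the values of Mgat3, Mgat5 and Gbe1 was not tested.

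Other genes of glycan and glycogen metabolism were looked up from 8 lists with 247 genes in all, of which 8 were in a table, the 4 enzymes and 4 others. The list of N-glycan trimming and branching had 2 of its 27 genes listed, Mgat3 and Mgat5, both higher with 3HB. Mgat1, Mgat2 and the other Mgat genes were not listed, and neither was any of the 39 genes for the N-glycan precursor and its transfer in the endoplasmic reticulum or any of the 21 genes for breakdown of glycans and glycolipids. Ganglioside and glycosphingolipid synthesis had 1 of 24 genes listed (B4galnt1). The glycogen list had 2 of 36, Gbe1 and Pygb. The KEGG annotation in the tables gave N-Glycan biosynthesis to 2 genes, Mgat3 and Mgat5, and starch and sucrose metabolism to Gbe1 and Pygb. A gene outside the tables was not called by the authors, and its level was not analysed here.

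Slc35a3 (ENSMUSG00000027957) encodes a Golgi transporter for UDP-N-acetylglucosamine, the sugar donor that the MGAT enzymes use, and was listed for young against old. It was at 14.8, 14.14 and 20.97 in the young mice, 23.68, 34.41 and 31.81 in the old mice and 37.03, 37.35 and 38.86 with 3HB. The groups followed each other without overlap, in the same order as for Gbe1. Old mice exceeded young mice by 0.82 (SE 0.23). The 3HB mice, which the listing did not use, exceeded old mice by 0.34 (SE 0.16) and young mice by 1.16 (SE 0.17), each at an exact permutation p of 0.1, the smallest possible. The differences from young mice without young mouse 3 were 0.98 for old and 1.32 for 3HB mice. Exons of Slc35a3 share 275 bases with the annotated gene Gm43191 on the same strand, so its value is uncertain there.

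Pygb (ENSMUSG00000033059), the brain form of glycogen phosphorylase, which releases glucose from glycogen, was listed for young against old and differed with age in the other direction from Gbe1. It was at 9.3, 8.12 and 10.99 in the young mice, 5.12, 4.76 and 6.34 in the old mice and 6.11, 8.24 and 6.42 with 3HB. Old mice lay below all young mice, with a log2 difference of -0.71 (SE 0.16), and the 3HB mice overlapped both groups. The 3HB mice differed from old mice by 0.30 (SE 0.16; exact permutation p = 0.2) and from young mice by -0.40 (SE 0.16; exact permutation p = 0.2). With young mouse 3 left out, old mice differed from young mice by -0.61 and 3HB mice by -0.30. In a comparison added after the values were seen, in which the listing of Pygb fixes the direction by age, the log2 ratio of Gbe1 to Pygb was 0.083 ± 0.125 in the young mice, 1.24 ± 0.335 in the old mice and 1.33 ± 0.115 with 3HB. It separated the young mice from all others, while old and 3HB mice overlapped (difference 0.091, SE 0.20). The ratio without young mouse 3 was higher than in young mice by 1.20 in old and 1.29 in 3HB mice, still without overlap.

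**Figure D4:**
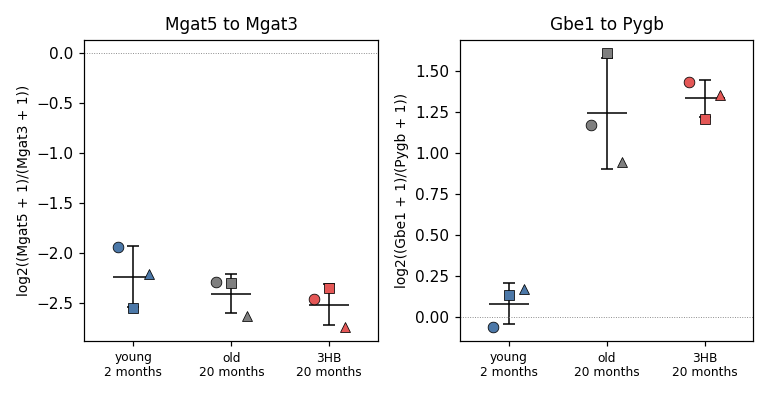
Log2 ratio of Mgat5 to Mgat3 (left) and of Gbe1 to Pygb (right) in each kidney, each value with 1 added, with bars for the mean ± SD (n = 3) and circles, squares and triangles for mouse 1, 2 and 3. The groups overlap on the left, and on the right the young mice (mean 0.083) lie below all mice of 20 months (means 1.24 and 1.33).

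Of the remaining lists, that of glycan-binding lectins had 1 of 20 genes listed, the galectin-binding Lgals3bp, and no galectin, siglec or selectin. The chain-extending glycosyltransferases had 1 of 50. Lgals3bp (ENSMUSG00000033880), a secreted glycoprotein that binds galectins, was at 26.24, 15.49 and 14.95 in the young mice, 48.73, 36.37 and 51.29 in the old mice and 33.06, 31.77 and 25.36 with 3HB. It was highest in old mice, 1.25 above young on the log2 scale (SE 0.29). The 3HB mice lay below all old mice by 0.57 (SE 0.19; exact permutation p = 0.1, the smallest possible), opposite to the direction of Mgat3, Mgat5 and Gbe1. The 3HB and young mice overlapped, with a difference of 0.68 (SE 0.28; exact permutation p = 0.2), or 0.54 without young mouse 3. Old mice were 1.12 above young mice when young mouse 3 was left out. B3gnt3 (ENSMUSG00000031803), which extends O-glycans on mucins, was low throughout, at 1.25, 0.17 and 0.74 in the young mice, 0.03, 0.19 and 0.06 in the old mice and 0.06, 0.1 and 0 with 3HB, and its old and young mice overlapped. The 3HB mice lay below all young mice, with a difference of -0.66 (SE 0.28; exact permutation p = 0.1, the smallest possible), or -0.62 without young mouse 3.

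**Figure D5:**
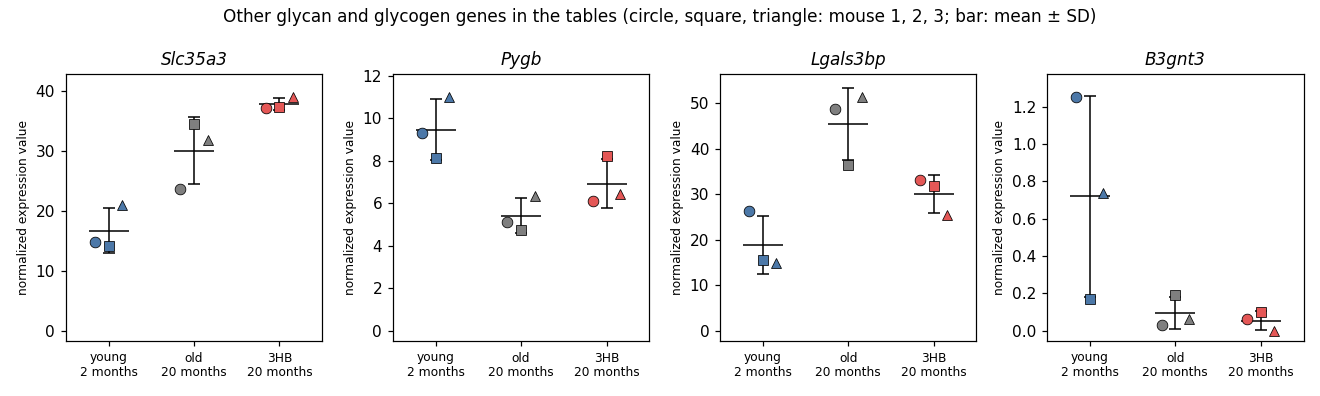
Normalized expression value (linear axis) of Slc35a3, Pygb, Lgals3bp and B3gnt3 in each of the 9 kidneys, with bars for the mean ± SD (n = 3) and circles, squares and triangles for mouse 1, 2 and 3. Slc35a3 steps up from young to old to 3HB mice without overlap, Pygb is lower and Lgals3bp higher in the old than the young mice, and B3gnt3 stays at or below 1.25.

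The genes most like each enzyme over the 9 mice were found by the Pearson correlation of log2(value + 1) among 449 other listed genes whose highest group mean was at least 1. These correlations are descriptions, since the mice fall into 3 groups and most of the genes were chosen for a difference between them. Mgat3 was most like Cmip (0.99), the kinase gene Lrrk2 (0.98) and the nuclear receptor coactivator gene Ncoa2 (0.98). Mgat5 was most like Dnajc3 (0.99), which encodes a co-chaperone of the endoplasmic reticulum, Zfyve16 (0.98), which encodes an endosomal protein, and Cemip2 (0.97), which encodes a cell surface hyaluronidase. All 6 were listed only for 3HB.

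Gbe1 was closest to genes listed only for young against old, namely Msn (0.96), which encodes the membrane and actin linker moesin, Slc35a3 (0.96) and Reep6 (0.94). B4galnt1 was closest to Rps2-ps13 (0.95), Rnpepl1 (0.94) and the ATP synthase subunit gene Atp5e (0.93). Rps2-ps13 is a pseudogene with near-identical copies, so its value is uncertain. By Spearman's rank correlation, Reep6 was only at place 40 for Gbe1 and Atp5e at place 27 for B4galnt1, while the other 10 genes were within the first 9 places. Among the enzymes themselves, the correlation was 0.90 for Mgat3 and Mgat5, 0.88 for Mgat3 and Gbe1 and 0.87 for Mgat5 and Gbe1, and it was negative for B4galnt1 with each of the others (-0.56 to -0.81).

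Markers of other cells were looked up beside these values. Of 10 B and plasma cell markers, 5 were listed, all higher in old than in young mice (Cd79a, Jchain, Mzb1, Ighm and Igkc), and their summed level was 40.3 to 212.8 in the young mice, 853.5 to 3083 in the old mice and 2305 to 3439 with 3HB. Of 10 macrophage markers, 3 were listed as higher in old mice (Lyz2, Mmp12 and Cd74, the last also as lower with 3HB), with a summed level of 83.3 to 158.9 in the young mice, 248.7 to 524.5 in the old mice and 203.4 to 241.9 with 3HB. Of 7 T cell markers only Cd8a was listed, at 0.47 to 5.37 in the young mice, 0.33 to 0.8 in the old mice and 0.47 to 0.94 with 3HB. Mzb1 was listed at 0 in young mouse 1, and no other listed marker was at 0 in any mouse. The plasma cell and macrophage sums were both lower in young mice than in all others, as was Gbe1, while B4galnt1 was higher there. All genes in these sums were listed as higher in old mice, so their separation of young from old mice follows from the listing. The part of these cells in the values of B4galnt1 and Gbe1 was not tested.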

How the data were processed

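RNA from 9 kidneys was sequenced as paired-end reads. The processing notes of the submitters name CASAVA, HISAT2, StringTie and the build GRCm38, and the annotation, counting, test and threshold behind the gene calls are not given in the sources used here. The authors deposited 2 tables of signal values, a normalized expression value with 2 decimals per gene and mouse, and whether these are TPM or FPKM is not given. Only called genes are listed, so no fit across genes and no normalization could be made, and depth is unknown. Groups came from the sample titles.

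Group means of log2(value + 1) were compared by two-sided exact permutation over the 20 splits of 6 mice. The mouse numbers were not taken to pair mice across groups, since same-numbered mice did not deviate together. The genes named are the 4 enzymes, all listed genes of the pathway lists, the 3 genes most like each enzyme, and markers, and Muc1, Cd44, Hapln1, Pigz, Plau, Tars and Gm47283 were named after their values were seen. The enzymes, lists and tests were chosen with earlier results of these data known. Alternatives covered the pseudocount, medians, the linear scale, a replicate block and leaving out each mouse. Protein features that had been planned were not analysed here. Scripts were tested on simulated data. The tests were run in Python 3.11.15 with scipy 1.17.1, numpy 2.4.6 and pandas 2.3.3, and plots were drawn with matplotlib 3.10.9.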

Additional observations from a re-analysis of the deposited data

How the results depend on the processing

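Of 165 alternatives to 15 differences (3 comparisons of the 4 enzymes and of the Mgat5 to Mgat3 ratio), 125 on the log2 scale kept the direction and moved the value by less than the SD between mice, 13 on the linear scale kept the direction (sizes are not comparable between the scales), 5 moved it further and 7 turned its sign, and the other 15 are the replicate block, which cannot move a mean over complete pairs. For B4galnt1, old against young was -1.58 with a pseudocount of 0.1 and -1.66 with none, and 3HB against young was -1.50 and -1.57. For Mgat5, 3HB against old was 0.70 with no pseudocount. On the linear scale, 3HB against old turned to -0.027 for B4galnt1 and to 3.28e-05 for the ratio of Mgat5 to Mgat3. With 1 mouse left out, 3HB against old ranged from -0.12 to 0.28 for B4galnt1 and from -0.23 to 0.0012 for the ratio, and old against young ranged from -0.014 to 0.51 for Mgat5 and from 0.14 to 0.67 for Mgat3. Mgat5 turned only without young mouse 2, and the ratio without 3HB mouse 3. Without young mouse 3, an alternative added after seeing the data, the genes listed only for 3HB that were higher without overlap numbered 38 instead of 9 for old against young and 43 instead of 27 for 3HB against young, and those lower numbered 10 instead of 2 and 30 instead of 10. With the replicate block the differences are those of the group means by construction (0.68 for Mgat3, 0.57 for Mgat5 and 0.40 for Gbe1, 3HB against old), and 3 pairs allow no sign-flip p below 0.25. The deviations of same-numbered mice correlated between -0.24 and 0.16, over 0.1 in 2 of 9 pairs, so the numbers are not taken to pair the mice. The Spearman correlations for the 12 likeness values lay between 0.70 and 0.996. The causes of these changes were not tested, and 3 mice per group with unknown depth limit all values.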

Other observations

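Other listed genes that act on or carry glycans were picked after their values were seen, so they are described without a test. Muc1 (ENSMUSG00000042784), a membrane mucin with many O-glycans, was at 11.37, 12.82 and 10.74 in the young mice, 3.5, 5.51 and 1.89 in the old mice and 2.28, 6.2 and 3.55 with 3HB. All young mice lay above all mice of 20 months, as for B4galnt1, and 3HB and old mice overlapped (log2 difference 0.11, SE 0.47).

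Among genes for hyaluronan, a glycan made without a protein core, Cd44 (ENSMUSG00000005087), which encodes its receptor, was at 0.247 ± 0.0862 in the young mice, 1.79 ± 0.785 in the old mice and 1.53 ± 0.331 with 3HB (mean ± SD, n = 3 each). The link protein gene Hapln1 (ENSMUSG00000021613), listed for young against old, was at 0.04, 0.19 and 0.53 in the young mice, 0.54, 1.73 and 0.38 in the old mice and 3.18, 2.16 and 3.76 with 3HB. Its 3HB mice lay above all others, by 1.15 over old mice (SE 0.35), although it was not among the genes listed for 3HB against old. Cemip2 (ENSMUSG00000024754), which encodes a cell surface hyaluronidase and is listed for 3HB, was at 1.75, 1.51 and 4.38 in the young mice, 2.74, 3.04 and 3.81 in the old mice and 5.98, 6.56 and 5.59 with 3HB, with young mouse 3 above all old mice as for Mgat5.

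Pigz (ENSMUSG00000045625), which encodes a mannosyltransferase for glycosylphosphatidylinositol anchors and was listed for young against old, was at 0.89, 0.24 and 0.8 in the young mice, 4.45, 1.92 and 2.24 in the old mice and 2.52, 2.73 and 1.11 with 3HB. All young mice lay below all mice of 20 months, and 3HB and old mice overlapped (log2 difference -0.30, SE 0.38).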
